A study of Ipomoea batatas with 12 samples.

Results

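Heat was set against no stress in sweetpotato (Ipomoea batatas), cultivar Xuzishu 8, by the RNA of 6 of the 12 libraries of the series. The 3 heat libraries (HT1 to HT3) came from plants kept at 42 °C and the 3 control libraries (CK1 to CK3) from plants kept at 25 °C in another growth chamber. Both sets of plants had grown for 60 d in the field before they were moved to Hoagland solution, and no drought agent was added to either. The libraries were chosen by the titles and treatments that GEO gives them, and the other 6 (DR, drought by 30% PEG6000, and DH, drought with heat) were used for the shared estimate of spread and for the direct comparisons at the end. Each library is a pool of leaf and storage root RNA from 7 times between 0.5 and 48 h, so times and organs were not resolved. The 3 libraries of a group are called biological replicates, but nothing states that they came from separate plants, and the p-values then measure only the spread between these pools. Because every HT plant stood in the hot chamber and every CK plant in the cool one, temperature and chamber cannot be told apart.

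Plants meet heat with a transcriptional program in which heat shock factors switch on chaperones. Small heat shock proteins bind unfolding proteins and keep them from aggregating, with separate families for the cytosol, plastids, mitochondria and peroxisomes, and HSP70 chaperones use ATP to refold them. In storage root crops the same organs also hold starch synthesis, phenylpropanoid metabolism and, in purple cultivars, anthocyanin synthesis.

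The values were FPKM, the fragments mapped to a gene per kilobase of its transcripts and scaled to the mapped fragments of its library, which gives no depth behind a single value. Depth per library was therefore unknown from these tables. Genes above 0 numbered 14425 to 20254 in the HT libraries and 18026 to 33410 in the CK libraries, and the 10 most abundant genes held 34.7% to 71.8% of the FPKM in HT libraries and 38.4% to 75.6% in CK libraries. Both ranges overlapped, and an exact permutation test (two-sided, p = 0.3 and p = 1, n = 3 each) cannot go below 0.1 with such groups, so it does not show that the measures are alike. Correlations of log2(FPKM + 1) between libraries were 0.61 to 0.85 within HT, 0.48 to 0.79 within CK and 0.34 to 0.76 between HT and CK. These ranges overlapped, yet every HT and CK library correlated most with a library of its own group. The margin was small for CK2, at 0.79 with CK3 and 0.76 with HT2. Other pairs within a group were further apart, and CK1 correlated at 0.48 with CK3 but at 0.72 with HT2.

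The summed levels of leaf markers and of storage root markers were both lower in every HT library than in any CK library, although none of the 12 leaf markers and none of the 3 root markers tested was called. The summed FPKM of 12 leaf marker IDs was 500, 146 and 416 in HT1 to HT3, against 7680, 2478 and 1313 in CK1 to CK3. Of these 12 IDs, 2, 5 and 2 were listed at 0 in HT1 to HT3, and none was at 0 in a CK library. HT and CK overlapped in 5 of the 12, and 6 of the 12 are genes of chlorophyll synthesis. The other 6 leaf IDs summed to 105, 68.8 and 150 in HT1 to HT3, against 2667, 533 and 122 in CK1 to CK3, so without the chlorophyll genes HT3 lay above CK3 and the leaf sums overlapped. For 4 storage root marker IDs the sums were 3.01, 20.3 and 1.85 in HT1 to HT3, against 33.6, 103 and 1751 in CK1 to CK3. CK1 held the most leaf marker RNA and CK3 the most root marker RNA, so the control pools differed among themselves in this respect. The markers were chosen from the symbols in tables that the study made from these samples, so the lower sums are not an independent measure of either organ. Of the root markers, the paper reports AGPS1, SBE1 and PHO1 as down-regulated under heat. In bulk pools, fewer cells of a type (or less RNA of an organ) and less RNA per cell cannot be told apart, and the part of the pool makeup in the results below was not tested.

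**Figure D1:**
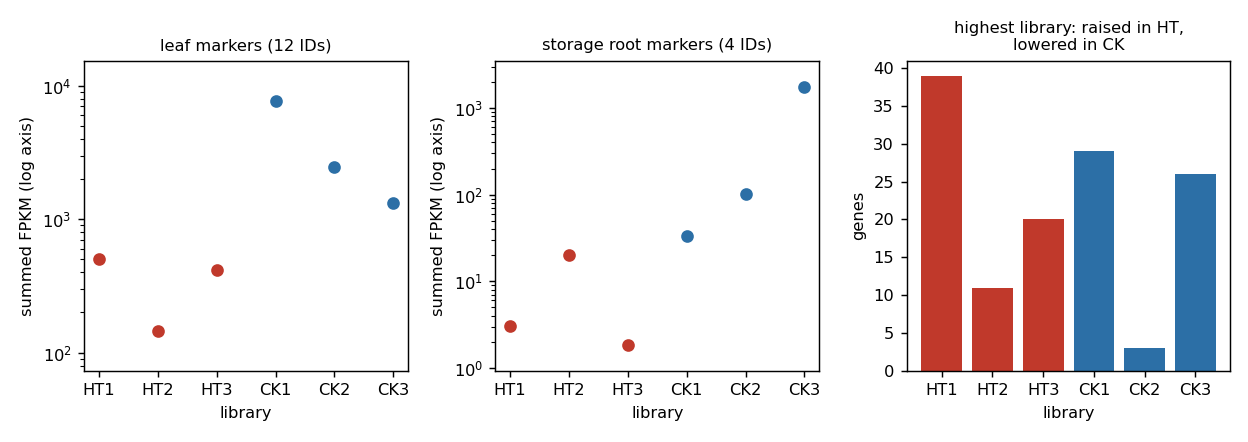
Summed FPKM of the leaf markers and of the storage root markers in each library (log axes), and the number of genes raised under heat that were highest in each HT library beside the number lowered under heat that were highest in each CK library. The 3 HT libraries lie below the 3 CK libraries in both marker sums. Without the IDs of chlorophyll synthesis the leaf sums overlap, at 150 in HT3 and 122 in CK3. Of the 58 lowered genes, 29 peaked in CK1 and 26 in CK3.

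Heat raised 70 genes and lowered 58 of the 12295 tested, which are 0.569% and 0.472% of them. Calls required both an adjusted p under 0.05 (limma on log2(FPKM + 1), Benjamini-Hochberg over all genes tested) and a log2 difference beyond 1, and 1860 genes had an unadjusted p under 0.05. The log2 differences of the called genes ran from 3.51 to 7.84 in the raised and from -7.79 to -2.60 in the lowered, with a median standard error of 1.01. The median over all genes tested was 0.30, so zero was not the middle of the distribution. In 1408 genes every HT library lay above every CK library (11.5% of those tested), and in 595 every HT library lay below (4.84%). Of the called genes, all 70 raised and 57 of 58 lowered had no overlap between HT and CK. Of the 58 lowered, 6 reached an FPKM of 1 in CK libraries only, so they entered the test through the group where they are high, and none of these 6 has a symbol.

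The number of calls depended on single libraries and on the spread borrowed from the other groups. Raised and lowered genes numbered 6 and 13 without HT1, 321 and 78 without HT2, 35 and 14 without HT3, 193 and 110 without CK1, 8 and 9 without CK2, and 26 and 73 without CK3. Calls that held in all 6 of these fits numbered 4 raised, among them HSP21 and RAP2-3, and 5 lowered, none of which has a symbol. A fit of the 6 HT and CK libraries alone called 7 raised and 4 lowered, among them HSP21 and HSP17.4B (MSTRG.37536). Without a filter on low values 5 were raised and 6 lowered, among them HSP21, RAP2-3 and PALA, and HSP21 was then the 1 small heat shock protein called. Upper-quartile scaling, which lowered the median of all genes by 0.72, called 28 raised and 288 lowered, and quantile scaling 73 and 119. All 128 called genes kept their direction under every alternative run. This was largely fixed in advance, since all 70 raised and 57 of 58 lowered had no overlap between HT and CK. Leaving out or reweighting libraries cannot turn such a difference.

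**Figure D2:**
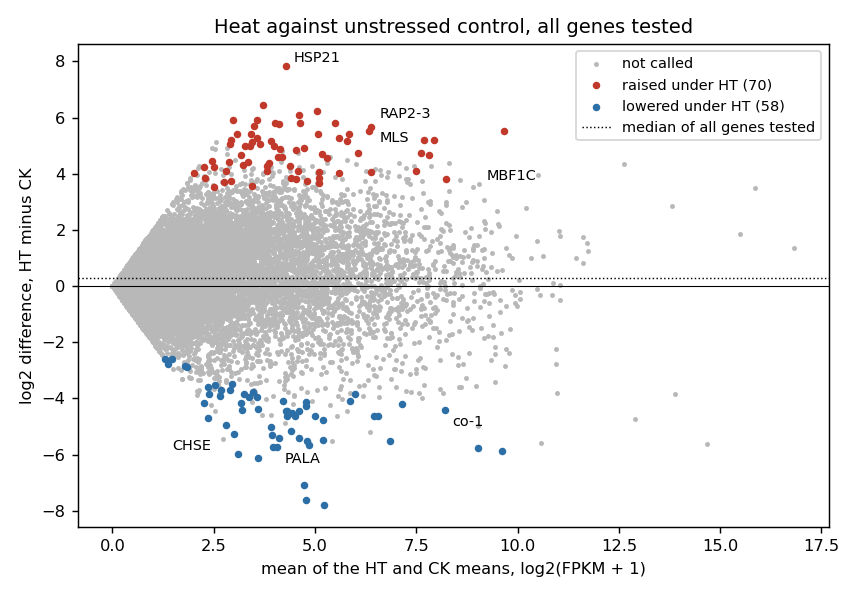
Log2 difference HT minus CK against the mean level for all 12295 genes tested, each a point, on log2(FPKM + 1). The 70 genes raised (red) lie at or above 3.51 and the 58 lowered (blue) at or below -2.60, and MBF1C, at 3.65, is not called.

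Small heat shock proteins had the most calls of any list. Most members of this and the other lists come from tables that the study made from these samples, so their common direction is not independent evidence. Of 9 tested members of this list, 6 were raised and none lowered. Over all genes tested, 0.569% were raised and 0.472% lowered, shares that also stand beside the counts of the later lists. The median log2 difference of the list was 4.70, against 0.30 for all genes tested. HSP21, a small chaperone of the plastid in Arabidopsis, had FPKM of 706, 49.1 and 720 in HT1 to HT3, against 1.13, 0 and 0 in CK1 to CK3. All HT values stood above the CK values, with HT2 well below the other two, and the log2 difference was 7.84 ± 1.15 (SE; adjusted p = 0.00148). It was the largest rise among the genes tested, and HSP21 alone of the 6 members raised stayed called without HT1 and without CK2.

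HSP17.4B, a class III small heat shock protein, was raised at both of its IDs. MSTRG.37536 had FPKM of 249, 58.0 and 116 in the HT libraries, against 4.95, 0.45 and 0.18 in the CK libraries (log2 difference 5.79 ± 1.01, SE, adjusted p = 0.00677). G39305 had 39.6, 13.2 and 161 in HT, against 2.41, 0.63 and 0 in CK (4.68 ± 1.11, adjusted p = 0.0402). HT2 was lowest of the 3 HT libraries at both IDs.

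The 2 IDs of HSP17.5-M, which bears the name of a soybean class I protein, were carried by HT3. MSTRG.30591 had FPKM of 39.0, 11.8 and 1067 in HT1 to HT3, against 1.49, 0 and 0.57 in CK (log2 difference 5.70 ± 1.28, SE, adjusted p = 0.0360). MSTRG.30592 had 34.3, 9.55 and 913 in HT, against 1.41, 0.48 and 0.24 in CK (5.41 ± 1.26, adjusted p = 0.0384). The 2 IDs followed each other closely over the libraries, and whether they share reads is not known, so they may not be separate evidence. Without HT3 their log2 differences were 3.84 and 3.56, and neither was called. HSP15.7, the peroxisomal member, had 163, 57.2 and 656 in HT, against 11.7, 3.43 and 5.35 in CK (4.70 ± 1.15, adjusted p = 0.0449), and it was not called at a pseudocount of 0.1 (adjusted p = 0.0504) or under upper-quartile scaling (0.0857).

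HSP22, a chloroplast small heat shock protein, was not called, with FPKM of 4.61, 0.46 and 47.0 in HT and 0.34, 0.21 and 0.32 in CK (log2 difference 2.51 ± 1.0, SE, adjusted p = 0.240), though without HT2 it was. The 2 IDs of SHSP-2 were silent in both groups. MSTRG.38747 was listed at 0 in all HT and CK libraries, and MSTRG.4626 only at 0.17 in HT3. The count of members called was 1 without HT1, 7 without HT2, 2 without HT3, 6 without CK1, 1 without CK2 and 2 without CK3. The IDs beginning with MSTRG are loci assembled by the authors, and all of those called here with a symbol have no value in DR replicate 2, so their spread came from 11 libraries.

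**Figure D3:**
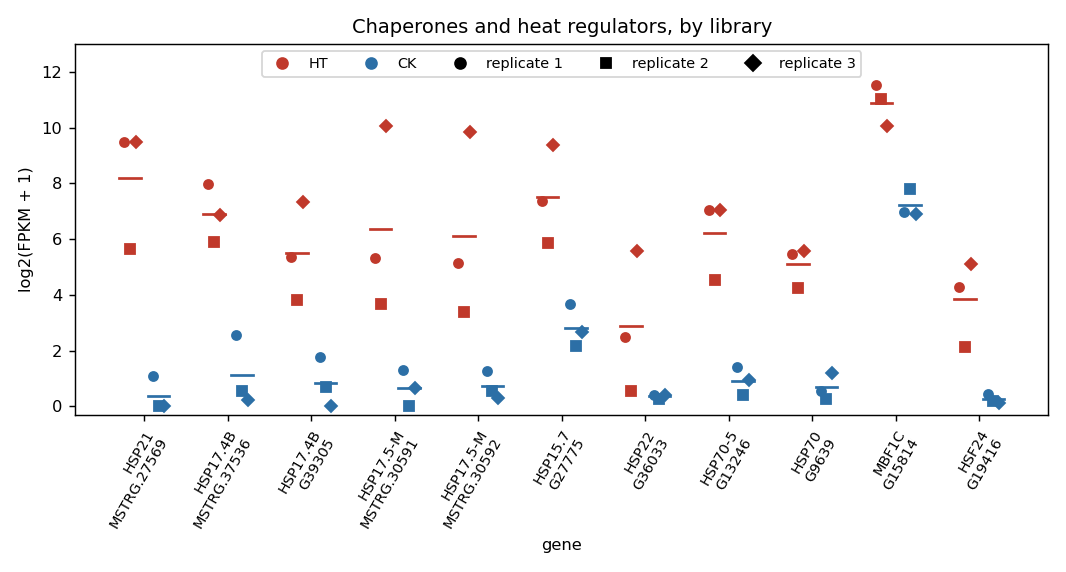
Level of 9 chaperone IDs and 2 heat regulators in each library, as log2(FPKM + 1), with HT in red left of CK in blue, marker shape giving the replicate and bars the group means. HT2 (squares) is the lowest HT library for every chaperone shown, and it also had the lowest median FPKM of all genes tested among the HT libraries. HT libraries lie above CK libraries for each of the 11 IDs, as in 11.5% of all genes tested. The SHSP-2 IDs, HSP90 and CAL1 of the same lists are not shown, and in none of them did HT lie above CK.

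Of 4 larger chaperones, the 2 HSP70 genes were raised, against 0.569% of all genes tested. The 2 members of the endoplasmic reticulum were not called, and the list median was 1.19. HSP70-5 (G13246) had FPKM of 130, 22.1 and 132 in HT1 to HT3, against 1.64, 0.34 and 0.94 in CK (log2 difference 5.28 ± 1.03, SE, adjusted p = 0.0146). HSP70 (G9639), annotated as the form of the chloroplast stroma, had 43.0, 17.9 and 47.0 in HT, against 0.48, 0.19 and 1.32 in CK (4.42 ± 0.90, adjusted p = 0.0196). In both genes HT1 and HT3 were nearly equal and HT2 was lower. The gene labelled HSP90 (G17562), an endoplasmin, had 1.8, 0 and 0 in HT, against 0.73, 2.81 and 27.9 in CK, and the groups overlapped (log2 difference -2.03, adjusted p = 0.254). CAL1 (G32946), a calreticulin-like protein that binds calcium in the endoplasmic reticulum, had 0.16, 0 and 0.39 in HT, against 0.50, 3.71 and 37.1 in CK (-2.46, adjusted p = 0.174). The count of this list was 0 without HT1, HT3 or CK2, 2 without HT2 or CK3, and 3 without CK1, where CAL1 was called as lowered.

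Neither of the 2 regulators of the heat response was called. Their HT values all lay above their CK values, as in 11.5% of all genes tested. MBF1C (G15814), a transcriptional coactivator needed for thermotolerance in Arabidopsis, had FPKM of 2954, 2087 and 1073 in HT1 to HT3, against 124, 220 and 119 in CK. Its log2 difference was 3.65 ± 0.98 (SE; adjusted p = 0.0718). HSF24 (G19416), a heat shock factor, had 18.6, 3.33 and 33.5 in HT, against 0.36, 0.13 and 0.10 in CK (3.59 ± 0.93, adjusted p = 0.0602). MBF1C was not called in any fit that left out a library, and HSF24 was called without HT2. At a pseudocount of 0.1 HSF24 was called as well (log2 difference 5.54, adjusted p = 0.0249), and under quantile scaling both were (MBF1C adjusted p = 0.0242, HSF24 0.0396).

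Both ethylene response factors of the list were raised, against 0.569% of all genes tested. Their order over the HT libraries differed from that of the chaperones. RAP2-3 (G11018) and ERF071 (G13450) bear the names of Arabidopsis group VII factors, which are known for their part in responses to low oxygen. RAP2-3 had FPKM of 827, 1370 and 186 in HT1 to HT3, against 8.56, 17.9 and 7.71 in CK (log2 difference 5.68 ± 1.0, SE, adjusted p = 0.00677). ERF071 had 119, 255 and 22.5 in HT, against 2.24, 1.81 and 1.46 in CK (4.99 ± 1.03, adjusted p = 0.0200). HT2 was the highest HT library for both and HT3 the lowest. Without HT1 and without CK2 the count of the list was 1, since ERF071 was lost, and RAP2-3 was called in all 6 fits.

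The list of 11 other transcription regulators also holds the F-box gene EDL3, which was the 1 member called. The list median was -1.58. EDL3 (MSTRG.34959), an F-box protein that acts in abscisic acid signalling in Arabidopsis, had FPKM of 285, 13.4 and 62.9 in HT1 to HT3, against 1.33, 0.73 and 0.57 in CK. The log2 difference was 5.11 ± 1.19 (SE; adjusted p = 0.0384), and the call was lost without HT1, HT3, CK2 or CK3. Of the members not called, LBD4 (G35460) had 3.32, 0.13 and 0.13 in HT, against 6.04, 11.7 and 108 in CK (-3.59, adjusted p = 0.0830), and was called as lowered without CK1. IDD14 (MSTRG.26174) was listed at 0 in all HT libraries and at 19.9, 1.96 and 1.09 in CK (-2.34, adjusted p = 0.124). NAC073 (G3211) had 17.9, 4.54 and 12.48 in HT, against 1.09, 0.57 and 1.19 in CK (2.54, adjusted p = 0.228). The remaining 7 members lay between -2.17 and 1.35.

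The glyoxylate cycle turns acetyl-CoA from fat into organic acids through isocitrate lyase and malate synthase, and a gene of each enzyme was raised. MLS (G42670), the glyoxysomal malate synthase, had FPKM of 2576, 138 and 451 in HT1 to HT3, against 6.10, 9.56 and 21.5 in CK (log2 difference 5.52 ± 1.14, SE, adjusted p = 0.0200). ICL2 (G23318), an isocitrate lyase, had 155, 7.21 and 281 in HT, against 6.0, 0.43 and 0 in CK (5.05 ± 1.25, adjusted p = 0.0486). HT2 was lowest for both, and for ICL2 it came close to CK1. The other ICL2 ID (G23306) reached 3.71 in HT3, was 0 in HT1 and HT2, and at most 0.05 in CK. Of the 3 members 2 were called as raised, against 0.569% of all genes tested. The count was 0 without HT1 or CK2, and 1 without HT3 or CK3. Under upper-quartile scaling neither MLS nor ICL2 was called.

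Of the 2 tyrosine breakdown genes, HPD was raised. HPD (G38888), 4-hydroxyphenylpyruvate dioxygenase, makes homogentisate, which is also the head group of tocopherol and plastoquinone. It had FPKM of 891, 175 and 256 in HT1 to HT3, against 21.1, 19.1 and 18.7 in CK (log2 difference 4.06 ± 1.02, SE, adjusted p = 0.0499). The 3 CK libraries lay close together, and the adjusted p was the highest of all calls. The call was lost without HT1, HT3, CK2 or CK3 and under scaling to the same sum. HGO (G234), which degrades homogentisate, had 5.25, 0.29 and 40.4 in HT and 0.16, 0.13 and 3.77 in CK, and the groups overlapped (1.91, adjusted p = 0.444).

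The other raised genes with a symbol had no list in common. SRC2 (MSTRG.43049), named after a cold-responsive soybean gene, had FPKM of 1453, 58.8 and 404 in HT1 to HT3, against 12.4, 12.03 and 3.51 in CK (log2 difference 5.15 ± 1.14, SE, adjusted p = 0.0338). Its call was lost without HT1, HT3, CK2 or CK3. UVR3 and Os04g0679100 were named after their values were seen, because they complete the 17 raised genes with a symbol. UVR3 (MSTRG.45901), in Arabidopsis a photolyase that repairs ultraviolet lesions of DNA, had 117, 90.9 and 17.6 in HT, against 0.25, 1.57 and 11.5 in CK (4.10, adjusted p = 0.0483). Os04g0679100 (G3982), a clathrin light chain-like protein of vesicle coats, had 62.0, 17.6 and 19.9 in HT, against 1.77, 0.26 and 0.35 in CK (4.11, adjusted p = 0.0363). UVR3 was lost without HT1, HT2, CK1 or CK2, and Os04g0679100 without HT1, HT3, CK2 or CK3.

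The unnamed gene with the largest rise, G11031, had FPKM of 205, 38.9 and 222 in HT1 to HT3, against 1.32, 0 and 0.21 in CK. Its log2 difference was 6.44 ± 0.95 (SE; adjusted p = 0.00148), and like HSP21 it was high in HT1 and HT3 and lower in HT2. G38875 had 1591, 67.0 and 222 in HT, against 1.57, 2.12 and 5.96 in CK (6.24 ± 1.17, adjusted p = 0.0116), and its call was lost without HT1 or CK2. Over the 70 raised genes, HT1 was the highest HT library in 39, HT3 in 20 and HT2 in 11, and HT2 was the lowest in 37. The median FPKM of all genes tested was also lowest in HT2, at 1.33, against 3.92 in HT1 and 4.9 in HT3. Low HT2 values are thus not particular to the raised genes. In 2 of the 70 all CK libraries were listed at 0.

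**Figure D4:**
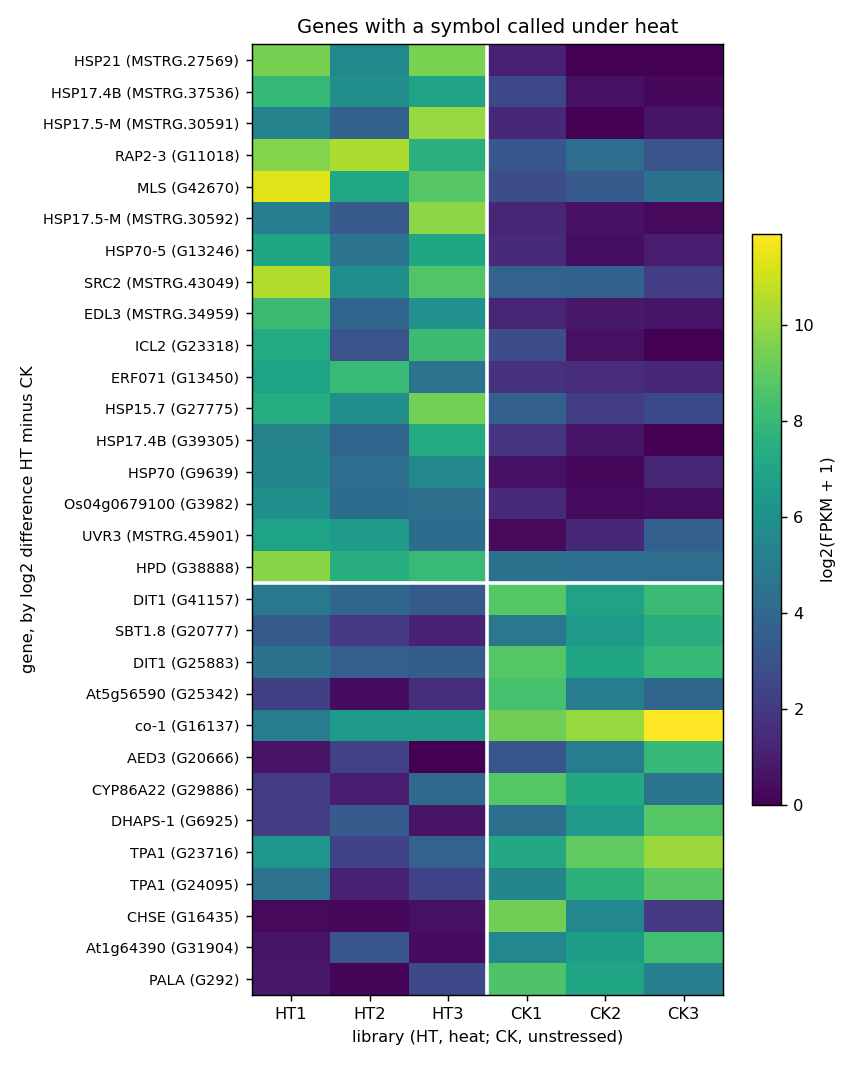
Level of each of the 30 called genes that have a symbol, as log2(FPKM + 1), with HT libraries left and CK libraries right. The 17 raised genes stand above the white line and the 13 lowered below it, and the darker HT2 column among chaperones contrasts with the bright HT2 cells of RAP2-3 and ERF071.

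Cell wall hydrolases and chitinases had high differences on average without a call. Of 10 wall hydrolases tested none was called, and their log2 differences ran from -2.28 to 4.92, with a median of 3.18. BXL1 (G32815), a beta-xylosidase that trims xylan, had FPKM of 119, 0.48 and 154.02 in HT1 to HT3 and was listed at 0 in all CK libraries (log2 difference 4.92 ± 1.25, SE, adjusted p = 0.0540). A further ID of it (G14317) had 28.3, 0 and 90.9 in HT, against 0.07, 0 and 0 in CK (3.77, adjusted p = 0.115). BGAL1 (G996), a beta-galactosidase, had 20.4, 0.20 and 82.4 in HT, against 0.06, 0 and 0.71 in CK (3.4, adjusted p = 0.142). MAN2 (MSTRG.33886), a mannanase, had 164.8, 0 and 43.9 in HT, against 0.46, 0.95 and 0.48 in CK (3.60, adjusted p = 0.225). In each of these 4 IDs HT1 and HT3 were high while HT2 was at or near the CK level, and without HT2 the list had 6 calls (1 without CK1). BXL1 (G32815) was also called at a pseudocount of 0.1 (adjusted p = 0.0143) and under each of the other scalings. The 1 member of the list below 0 was BACOVA_02659 at G35534 (-2.28), with overlap between HT and CK.

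The 3 chitinases, enzymes that cut the chitin of fungal walls, did not pass either, and their median was 4.29. CHIT1B had FPKM of 47.2, 4.01 and 194 in HT, against 0.77, 0.32 and 0.12 in CK at G27895 (log2 difference 4.71 ± 1.31, SE, adjusted p = 0.0850). At G47455 it had 22.9, 2.53 and 87.6 in HT and was listed at 0 in all CK libraries (4.29, adjusted p = 0.0999). EP3 (MSTRG.17467) had 8.44, 0.29 and 10.2 in HT, against 0.08, 0 and 0 in CK (2.32, adjusted p = 0.271). Without HT2 2 of the 3 were called, and without CK1 1 was. At a pseudocount of 0.1 both CHIT1B IDs were called (adjusted p = 0.0247 at G27895 and 0.00562 at G47455).

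The lowered genes with a symbol included PALA and CHSE, enzymes of phenylpropanoid and flavonoid synthesis. These pathways lead from phenylalanine to lignin precursors, flavonols and anthocyanins. All lowered genes below stand beside the lower leaf and root marker sums given above.

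Phenylalanine ammonia-lyase takes the first step from phenylalanine, and PALA (G292) was the member called of 5. It had FPKM of 0.72, 0.14 and 5.23 in HT1 to HT3, against 391, 127 and 35.6 in CK1 to CK3. The groups were far apart, the log2 difference was -5.73 ± 0.99 (SE; adjusted p = 0.0064), and of the fits that left out a library only that without HT1 lost the call. The ID labelled PAL (G26651) had 0.32, 0 and 0.42 in HT, against 2.38, 2.45 and 25.5 in CK (-2.45, adjusted p = 0.115), and was called without CK1. CYP98A3, a hydroxylase on the way to lignin monomers, had 17.2, 5.81 and 18.2 in HT, against 532, 46.6 and 54.1 in CK at G25739 (-3.07, adjusted p = 0.185). At G26105 it had 17.45, 3.11 and 15.4 in HT, against 380, 22.4 and 16.3 in CK, with overlap (-2.32, adjusted p = 0.355). The list median was -2.45, and 4CL3, the fifth member, lay at -1.54.

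Of 6 flavonoid enzymes 1 was called, and the median was -3.79. CHSE (G16435), a chalcone synthase that forms the flavonoid skeleton, had FPKM of 0.23, 0.18 and 0.45 in HT, against 640, 45.4 and 2.99 in CK1 to CK3 (log2 difference -5.26 ± 1.23, SE, adjusted p = 0.0384). The HT values were near 0 throughout while CK spanned a wide range, and the call was lost without HT1, HT3, CK1 or CK2. FL (G11743), a flavonol synthase, had 0.15, 0.37 and 0.19 in HT, against 403, 22.8 and 1.02 in CK (-4.45, adjusted p = 0.0749), the same order of CK libraries as CHSE. AN3 (G43546), flavanone 3-hydroxylase, had 2.35, 5.29 and 17.7 in HT, against 117, 39.3 and 401 in CK (-4.08, adjusted p = 0.0802). CYP75B2 (G45681), flavonoid 3'-hydroxylase, had 1.14, 4.98 and 1.46 in HT, against 70, 15.2 and 38.5 in CK (-3.50, adjusted p = 0.0641). The chalcone isomerases CHI and CHI3 lay at -1.89 and -2.15. CHI3 (G29792) reached an FPKM of 1 in CK libraries only and so entered the test through the group where it is high, and the median of the other 5 members was -4.08. The list had 3 calls without HT2 and 2 without CK3, and without CK1 CHSE was not called.

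DHAPS-1 and SHKA encode the enzyme at the entry to the shikimate pathway, which supplies phenylalanine. DHAPS-1 (G6925) was lowered, with FPKM of 3.52, 9.51 and 0.53 in HT1 to HT3, against 19.7, 86.1 and 427 in CK1 to CK3 (log2 difference -4.46 ± 1.05, SE, adjusted p = 0.0384). CK3 was the highest library, unlike in PALA and CHSE, and the call was lost without HT1, HT3, CK2 or CK3. SHKA at G16674 had 2.56, 3.15 and 1.63 in HT, against 112, 7.50 and 51.4 in CK (-3.45, adjusted p = 0.0935), and at G15990 the groups overlapped (-2.37, adjusted p = 0.237). The second DHAPS-1 ID (G6879) was under the filter, with at most 0.15 in HT and 5.73 in CK3.

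Both GSTF11 IDs tested were below CK in every HT library, as were 4.84% of all genes tested, and neither was called. Their log2 differences were -3.29 (G19448, adjusted p = 0.0813) and -2.38 (G19139, adjusted p = 0.179). A further ID (G19432) was under the filter, with at most 0.39 FPKM in HT and 41.4 in CK3. GSTF11 is a glutathione transferase, and G19448 had FPKM of 0.14, 0 and 0 in HT, against 1.35, 4.94 and 75.9 in CK. Both IDs tested were called without CK1, and G19448 was called at a pseudocount of 0.1 (adjusted p = 0.0449).

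Of 3 peptidases tested 2 were lowered, against 0.472% of all genes tested, and SCPL18 (G26504) was under the filter. AED3 (G20666), an aspartyl protease, had FPKM of 0.55, 3.99 and 0 in HT1 to HT3, against 8.15, 31.8 and 248 in CK (log2 difference -4.41 ± 1.05, SE, adjusted p = 0.0404). SBT1.8 (G20777), a subtilisin-like protease, had 9.28, 2.89 and 1.26 in HT, against 25.4, 87.6 and 184 in CK (-4.07 ± 0.93, adjusted p = 0.0373). In both, CK3 was highest and CK1 lowest of the controls. Both calls were lost without HT1, HT3, CK2 or CK3 and also at a pseudocount of 0.1 (adjusted p = 0.0649 for AED3 and 0.0510 for SBT1.8), and SBT1.6 (G30760) lay at -0.64 with overlap.

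Other lowered genes bear the names of enzymes of walls and lipids. At1g64390 (G31904), which in Arabidopsis is an endoglucanase, had FPKM of 0.59, 8.09 and 0.31 in HT, against 44.4, 101 and 314 in CK (log2 difference -5.41 ± 0.99, SE, adjusted p = 0.00919), and lost its call without HT1. At5g56590 (G25342), in Arabidopsis a beta-1,3-glucanase, had 3.77, 0.31 and 1.96 in HT, against 347, 30.6 and 14.1 in CK (-4.38, adjusted p = 0.0384), and lost its call without HT1, HT3, CK1 or CK2. CYP86A22 (G29886), in petunia a fatty acyl hydroxylase, had 3.35, 0.91 and 16.3 in HT, against 427, 148 and 22.7 in CK (-4.45, adjusted p = 0.0457). HT3 came close to CK3 there, and the call was lost without HT1, HT2, CK1 or CK2. At a pseudocount of 0.1 neither At5g56590 (adjusted p = 0.0510) nor CYP86A22 (0.0649) was called.

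TPA1 was lowered at 2 IDs whose values moved together. G24095 had FPKM of 22.0, 1.15 and 4.29 in HT, against 42.9, 199 and 457 in CK (log2 difference -4.64 ± 1.03, SE, adjusted p = 0.0337). G23716 had 75.4, 4.18 and 12.6 in HT, against 145, 504 and 1101 in CK (-4.63 ± 1.07, adjusted p = 0.0384). Both calls were lost without HT2, HT3, CK2 or CK3. The gene labelled co-1 (G16137) was the most abundant of the lowered genes with a symbol, at 31.3, 86.5 and 93.5 in HT, against 630, 1063 and 3820 in CK (-4.41 ± 1.04, adjusted p = 0.0384), and was lost without HT1, HT3, CK2 or CK3.

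DIT1, in Arabidopsis a dicarboxylate transporter of the plastid envelope, was named after its values were seen, because its 2 IDs complete the 13 lowered genes with a symbol. G25883 had FPKM of 20.5, 10.6 and 10.2 in HT, against 430, 126 and 248 in CK (log2 difference -4.08, adjusted p = 0.0373). G41157 had 27.4, 15.1 and 9.21 in HT, against 432, 116 and 277 in CK (-3.85, adjusted p = 0.0405). Both calls were lost without HT1, HT3, CK1, CK2 or CK3, at log2 differences of -4.54 to -3.66 for G25883 and -4.37 to -3.43 for G41157 over the fits that left out a library.

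The largest falls were in genes with no symbol. G937 had FPKM of 0.73, 2.34 and 1.74 in HT, against 2116, 824 and 96.4 in CK (log2 difference -7.79 ± 1.04, SE, adjusted p = 0.000847), and was called in all 6 fits that left out a library. MSTRG.10292 had 0, 1.58 and 1.88 in HT, against 2193, 1036 and 24.4 in CK (-7.63 ± 1.25, adjusted p = 0.00419), and was lost without HT1. Over the 58 lowered genes, CK1 was the highest control library in 29, CK3 in 26 and CK2 in 3. PALA, CHSE, CYP86A22, At5g56590 and G937 were of the first kind, and DHAPS-1, AED3, SBT1.8, TPA1 and co-1 of the second. In 3 of the 58 all HT libraries were listed at 0.

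Starch genes were far below CK without passing the test. Of 5 members 3 were tested, with a median log2 difference of -4.59, and in each every HT library lay below every CK library, as in 4.84% of all genes tested. AGPS1 (G24701), a subunit of the ADP-glucose pyrophosphorylase that commits carbon to starch, had FPKM of 2.60, 3.12 and 0.21 in HT, against 7.12, 38.0 and 791 in CK (-4.59 ± 1.27, SE, adjusted p = 0.0830). BMY1 (G48653), the beta-amylase of storage roots, had 0.17, 16.9 and 1.17 in HT, against 24.8, 56.5 and 753 in CK (-4.86 ± 1.27, adjusted p = 0.0633). PHO1 (G6471), starch phosphorylase, had 0.05, 0.17 and 0.47 in HT, against 1.54, 7.36 and 187 in CK (-3.70, adjusted p = 0.0943). The 3 genes are also storage root markers of the list above, all 3 were called without CK1, and AGPS1 and BMY1 were called without HT2. SBE1 (G35317), a branching enzyme, was under the filter, with at most 0.19 in HT and 0.21, 1.04 and 19.3 in CK.

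No gene of chlorophyll synthesis was called. In all 6 members every HT library lay below every CK library, as in 4.84% of all genes tested, and the median was -2.93. The 6 also make up the larger share of the leaf marker sums, and of the 6 leaf markers outside chlorophyll synthesis 1 was without overlap, at log2 differences of -2.55 to -0.88 over those 6. CRD1 (G16398), a subunit of the cyclase that closes the fifth ring of chlorophyll, had FPKM of 273, 48.8 and 178 in HT, against 3504, 1211 and 533 in CK (log2 difference -3.28, adjusted p = 0.168). A second copy (G16412) had 84.1, 20.0 and 70.8 in HT, against 1202, 569 and 510 in CK (-3.80 ± 1.05, SE, adjusted p = 0.0813). The third copy (G14909) had 0.14, 0 and 0 in HT, against 8.66, 2.31 and 6.62 in CK (-2.58, adjusted p = 0.116). GUN4 (MSTRG.41460), an activator of magnesium chelatase, had 37.6, 8.63 and 15.1 in HT, against 282, 157 and 137 in CK (-3.34, adjusted p = 0.113), and the 2 IDs of CHLH, a chelatase subunit, lay at -2.19 and -1.59. Under upper-quartile scaling 4 of the 6 were called as lowered, under quantile scaling 3, and at a pseudocount of 0.1 G14909 was (adjusted p = 0.0448). PAO, which opens the ring in chlorophyll breakdown, had 26.7, 132 and 64.7 in HT, against 14.8, 4.30 and 8.53 in CK at G37418 (2.75, adjusted p = 0.185). At G37287 its groups overlapped (1.64, adjusted p = 0.421).

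No gene of wall growth was called, and most overlapped between groups. None of 10 expansins and xyloglucan transferases, which loosen and remodel walls, was called, and the median was -2.14. XTH1 (G230) was listed at 0 in all HT libraries and at 1.48, 2.31 and 15.0 FPKM in CK (log2 difference -2.35 ± 0.63, SE, adjusted p = 0.0718). It reached an FPKM of 1 in CK libraries only and so entered the test through the group where it is high, and the median of the other 9 was -1.98. XTH32 had 3.92, 3.65 and 0.15 in HT, against 5.94, 33.9 and 62.0 in CK at G26672 (-3.06, adjusted p = 0.127), and its other ID G9843 overlapped (-3.58, adjusted p = 0.184). EXPA2 (G22375) had 1.6, 1.04 and 0 in HT, against 3.48, 13.5 and 15.8 in CK (-2.56, adjusted p = 0.160). Without CK1 both XTH32 IDs of the other 9 were called. Of 5 cellulose and tubulin genes tested none was called, and KOR (G15032), a membrane endoglucanase of cellulose synthesis, lay at -2.39 with 78.6, 31.5 and 8.06 in HT, against 98.1, 131 and 259 in CK.

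Aquaporins, raffinose genes and BAM1 did not pass either. PIP2-7 (G27911), a water channel of the plasma membrane, had FPKM of 46.9, 42.1 and 64.5 in HT, against 11119, 342 and 7.63 in CK, so that CK3 lay below all HT libraries (log2 difference -2.64, adjusted p = 0.453). TIP1-3, a vacuolar water channel, lay at -2.99 and TIP1-1 at 0.53, with a sign that turned under upper-quartile and quantile scaling. The raffinose genes had a median of 2.09, and RFS6 (G41031), a raffinose synthase, had 11.97, 6.53 and 15.0 in HT, against 0.39, 0.34 and 2.33 in CK (2.66, adjusted p = 0.228). The galactinol synthase GOLS2 (G45635) had 7.82, 0.12 and 59.7 in HT, against 1.48, 0 and 1.16 in CK (2.27, adjusted p = 0.339). The 3 IDs of BAM1, a beta-amylase known for stress-time starch breakdown in Arabidopsis, lay between 1.27 and 1.84, and each overlapped. The most abundant, G15055, had 1124, 102 and 398 in HT, against 284, 76.4 and 44.5 in CK.

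None of the 5 jasmonate and lipoxygenase genes was called, and their differences had both signs. OPR3, the reductase of jasmonate synthesis, had FPKM of 10.7, 2.54 and 2.21 in HT, against 28.6, 164 and 172 in CK at G11747 (log2 difference -4.21 ± 1.09, SE, adjusted p = 0.0584). At G20440 it had 25.5, 6.55 and 8.90 in HT, against 70.2, 359 and 327 in CK (-4.02 ± 1.1, adjusted p = 0.0813), and both were called without CK1. ACX2 (G20012), an acyl-CoA oxidase of beta-oxidation, had 108, 10.1 and 52.7 in HT, against 2.92, 4.96 and 0.88 in CK (3.51, adjusted p = 0.123), and was called without HT2. LOX2.1 (G9582) lay at 1.25 and LOX1.5 at 0.24, the median of the list, whose sign turned under upper-quartile and quantile scaling. Of the methyl cycle 3 of 6 members were tested, with a median of -2.14 and no call, and of sucrose genes 2 of 3, with TIV1, a vacuolar invertase, at -2.69 (G21840, adjusted p = 0.125).

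Over the 27 lists, 117 of 127 members were tested, 14 were raised and 5 lowered, where 0.569% and 0.472% of all genes tested were. Members raised and lowered numbered 17 and 5 at a pseudocount of 0.1, 2 and 1 without a filter, 9 and 37 under upper-quartile scaling, 16 and 18 under quantile scaling, and 2 and 0 in the fit of HT and CK alone. The 10 under the filter were all highest in CK3, where they had 1.33 to 41.4 FPKM, and at most 0.74 in an HT library.

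**Figure D5:**
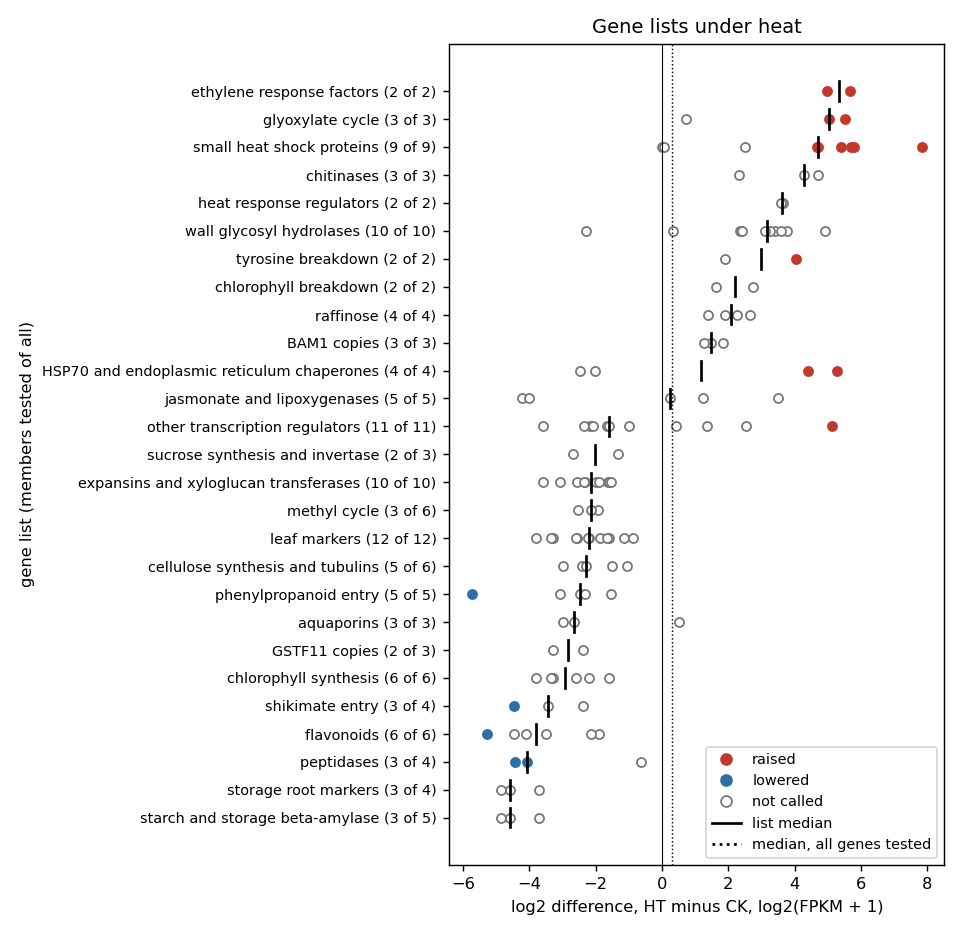
Log2 difference HT minus CK of the tested members of each list, each a point, filled where raised (red) or lowered (blue), with a bar at the list median and a dotted line at 0.30, the median of all genes tested. Points of the chaperone, ethylene response factor and glyoxylate lists reach the right, and the starch, peptidase and flavonoid lists lie to the left.

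The 3 most abundant genes had no symbol and were not called. G13073 had FPKM of 105130, 238051 and 264502 in HT1 to HT3, against 27067, 369988 and 38244 in CK (log2 difference 1.37, adjusted p = 0.549). G40351 had 99547, 266028 and 303143 in HT, against 30491, 150322 and 1259 in CK (3.48, adjusted p = 0.202). G34382 had 2714, 37923 and 510 in HT, against 85275, 213592 and 350579 in CK, without overlap (-5.63 ± 1.65, SE, adjusted p = 0.104), and was called as lowered without HT2 or without CK1.

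Heat was also compared with the other stresses directly, to ask which of its differences are its own. Against drought, 2 genes were higher in HT and 6 lower (0.0163% and 0.0488% of 12295; limma, 898 at an unadjusted p under 0.05). Against drought with heat none was called (0%; limma, 597 at an unadjusted p under 0.05). The 128 genes called against CK included none of these. Of the 70 raised, 25 had an unadjusted p under 0.05 against DR and 9 against DH. Of the 58 lowered these numbers were 14 and 0, and no adjusted p was below 0.127. Over all 12295 genes tested they were 898 and 597. The 128 genes were chosen by HT values that also enter these comparisons, so their counts are not independent evidence. A difference of the heat response of these genes from the other stresses was thus not detected, which does not show that the responses are alike.

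The levels in the other stresses show this for the leading genes. HSP21 had FPKM of 706, 49.1 and 720 in HT, 72.1 and 422 in DR1 and DR3, 147, 86.9 and 833 in DH, and 1.13, 0 and 0 in CK. RAP2-3 had 827, 1370 and 186 in HT, 836, 363 and 603 in DR, 1922, 395 and 624 in DH, and 8.56, 17.9 and 7.71 in CK. PALA had 0.72, 0.14 and 5.23 in HT, 2.78, 0.41 and 5.15 in DR, 0.31, 0.50 and 0.09 in DH, and 391, 127 and 35.6 in CK. HSP15.7 had 163, 57.2 and 656 in HT, 35.4, 1.16 and 10.8 in DR, 259, 20.5 and 105 in DH, and 11.7, 3.43 and 5.35 in CK. Its difference HT minus DR was 4.24 (adjusted p = 0.312). The stress groups overlapped in HSP21, RAP2-3 and PALA, while for HSP15.7 HT lay above DR and overlapped DH.

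The smallest adjusted p-values between heat and drought were those of SHSP-2, a small heat shock protein by name. MSTRG.4626 had FPKM of 0, 0 and 0.17 in HT, 238 and 405 in DR1 and DR3, 45.5, 5.40 and 18.7 in DH, and was listed at 0 in all CK libraries (HT minus DR -8.21 ± 1.01, SE, adjusted p = 0.000356). MSTRG.38747 was listed at 0 in all HT and CK libraries and had 79.8 and 152 in DR and 3.16, 1.04 and 4.81 in DH (HT minus DR -6.80 ± 0.92, adjusted p = 0.000874). These values rest on 2 DR libraries. In the other direction, G15958 and G42963, named after their values were seen, were the 2 genes higher in HT than in DR. G15958 had 606, 758 and 581 in HT, 35.7, 5.08 and 9.45 in DR, 152, 106 and 80.2 in DH, and 198, 45.6 and 27.6 in CK (HT minus DR 5.60 ± 0.98, adjusted p = 0.0156). G42963 had 480, 524 and 1115 in HT, 62.7, 3.73 and 8.25 in DR, 131, 87.1 and 76.9 in DH, and 394, 105 and 61.3 in CK (5.54 ± 1.04, adjusted p = 0.0260). In both genes the 3 HT libraries lay above all DR, DH and CK libraries. The other 4 genes lower in HT than in DR have no symbol. Of these, MSTRG.21000, MSTRG.45150 and MSTRG.6512 also rest on 2 DR libraries. G34785 was listed at 0 in all HT, DH and CK libraries and had 8.81, 4.79 and 23.5 in DR. It therefore entered the test only through the group where it is high. The number called against DR was 4 without HT1, 35 without HT2 and 17 without CK1, and against DH 55 without HT2 and 1 without CK1.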

How the data were processed

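The authors trimmed the reads, then aligned them to the sweetpotato genome with HISAT2 (2.0.4) and used StringTie (1.3.4d) for assembly and quantification. Each deposited table holds the FPKM of 1 library, and whole reads could not be recovered from those values. Labels and methods differ on the trimmer, the RNA kit and the sequencer. Sample titles gave the groups. The log2(FPKM + 1) of 12 libraries in 4 groups was fitted with limma 3.58.1 in R 4.3.3 (two-sided moderated test, trended prior). Genes entered the fit where 3 or more libraries reached an FPKM of 1, 12295 in number. Of the 50592 genes listed, DR replicate 2 lists 49073, and 1087 of those tested were fitted on 11 libraries. Fold changes on this scale understate changes of low genes. Symbols are from the study's supplementary tables (203 tested genes), and near-identical copies can share reads. Permutation tests used Python 3.11.15 with scipy 1.17.1. The fit was tested on simulated data.

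Named genes are members of 27 lists (in lists over 4 genes, the called ones and up to 4 with the largest difference), the 10 called genes with a symbol that rose and fell most without overlap, at most 2 without a symbol each way, and the 3 most abundant. Further members appear with their values only. The members, lists and tests were chosen with earlier results of these data known. Alternatives were another pseudocount, other filters and scalings, fits of the compared groups alone, a replicate block, array weights and each HT and CK library left out. A scaling without the 10 most abundant genes was added after seeing the data. Proteome data were not used here.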

Additional observations from a re-analysis of the deposited data

How the results depend on the processing

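Raised and lowered genes numbered 70 and 58 against CK, with 8 genes called against DR and 0 against DH. Without a filter on low values (40167 genes) the counts against CK were 5 and 6, with 3 against DR. The filter on HT and CK libraries alone left 0 against DR. Upper-quartile scaling gave 28 and 288, with 18 against DR, quantile scaling 119 lowered, with 14 against DR and 2 against DH, and scaling without the 10 most abundant genes (chosen after seeing the data) 122 raised, with 13 and 3. The fit of only the groups compared gave 7 and 4, with 24 against DR, and array weights 1094 and 232, with 20 and 1. The share of raised among called genes was 54.7%, against 8.86% under upper-quartile scaling and 38% under quantile scaling, which moved the median of all genes by -0.72 and -0.29. Scaling to the same sum moved it by -0.11. A pseudocount of 0.1 gave 89 and 43. Leaving out 1 library gave 6 to 321 raised, 9 to 110 lowered, 4 to 35 against DR and 0 to 55 against DH. No named gene that was called turned its direction, which was largely fixed in advance for genes without overlap between HT and CK. The cause of these shifts was not tested, apart from the number of genes or samples that a setting itself changes. FPKM give no depth, so counting error could not be set against these differences.

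Deviations from the group means gave no clear pairing of HT with CK by replicate number, with correlations of -0.12, 0.16 and -0.06 for numbers 1 to 3. Summary measures did share a pattern by number. Replicate 2 had the lowest median FPKM of the genes tested in HT, CK, DR and DH (1.33, 0.91, 1.27 and 0.66). In each group it also had the largest share of FPKM in the 10 most abundant genes (71.8%, 75.6%, 75.3% and 89.7%). The cause of this pattern was not tested. With the replicate block 282 genes were raised and 137 lowered, and 15 were called against DR.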
